A study of Mus musculus with 6 samples.

Results

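EpCAM-positive cells sorted from mouse pancreatic tumours were described by the absolute level of their transcripts. The 300 genes with the highest mean of the 3 EpCAM+ libraries were taken from the 25978 genes of the deposited table, which is 1.15% of them. The 40 genes with a standard deviation (SD) of at least 1 over the same 3 libraries were taken from the 9449 genes with a mean of at least 8, which is 0.423% of those. Both choices used the measured values, so the levels, the spread and the counts are a description, and no test was made. The EpCAM- libraries were not used.

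The mice were KPCY animals of 5 to 7 weeks in the C57BL/6 background, whose alleles include Pdx1-Cre, Trp53fl/fl and the reporter Rosa26LSL-YFP. In these animals the Cre recombinase, driven by the pancreatic Pdx1 promoter, deletes Trp53 and turns on yellow fluorescent protein (YFP), so all 3 libraries share these alleles. Pdx1-Cre acts in the whole developing pancreas, so YFP marks its lineage and not tumour cells alone. Cells positive for YFP and EpCAM were sorted from primary tumours, and the series describes 3 biological replicates. The labels do not say whether a library came from 1 animal or from pooled animals.

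EpCAM is an adhesion protein of the epithelial surface and is the gate of the sort. Cells of pancreatic duct adenocarcinoma carry duct features, among them the simple keratins Krt7, Krt8, Krt18 and Krt19, and in mouse models the early lesions are known to take on mucous cell features of the stomach. Acinar cells make digestive enzymes, islet cells make peptide hormones, and fibroblasts make most of the fibrillar collagen of the tumour.

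Levels are the deposited normalised values on a log2 scale, on which a difference of 1 is a factor of 2. They are not divided by transcript length, so ranks on this scale favour long transcripts. A second ranking took the log2 of the exon length in kilobases (kb) off each value, and is called the level per kb. The sequencing depth is not known from the table, so no counting interval can be given. In bulk samples such as these, fewer cells of a type and less RNA per cell cannot be told apart.

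The markers were checked against the label. Epcam stood at 15.06, 14.90 and 14.89 on the deposited log2 scale in EpCAM+ replicates 1, 2 and 3, at rank 61. Krt7, a keratin of duct epithelium, stood at 15.34, 15.39 and 15.19, at rank 38. Clu, which encodes the secreted chaperone clusterin, was the highest gene of each library at 18.99, 18.88 and 19.10. The 3 libraries differed little in all 3 genes, whose SDs were 0.0960 for Epcam, 0.105 for Krt7 and 0.108 for Clu. Per kb of exon, Clu ranked 2, Epcam 65 and Krt7 182. With the longest annotated transcript as the length, which for Krt7 is 4.09 kb in place of 7.05 kb of joined exons, these ranks were 1, 76 and 135.

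Of the 13 epithelial and duct markers, 9 were among the 300 highest genes. Besides Clu, Krt7 and Epcam these were Spp1 (osteopontin, rank 6), Krt8 (14), Krt18 (20), Cdh1 (E-cadherin, 32), Krt19 (41) and Muc1 (a surface mucin, 236). The duct regulator Sox9 followed at rank 346 with 12.99, 13.70 and 13.31, and the chloride channel Cftr at rank 372 with 13.13, 13.14 and 13.58. Car2, a carbonic anhydrase of duct cells, ranked 563. The 13 markers together made up 4.14%, 3.83% and 4.13% of the summed back-transformed values of the 3 libraries.

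Genes of the engineered alleles were read at the level of the whole gene, which does not separate the recombined from the normal allele. Trp53 stood at 7.36, 6.93 and 7.17 (rank 10701), and since the deposited value joins all exons, reads outside the deleted part count toward it. Pdx1, whose promoter drives the Cre, stood at 10.24, 9.69 and 9.82 (rank 5425).

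**Figure D1:**
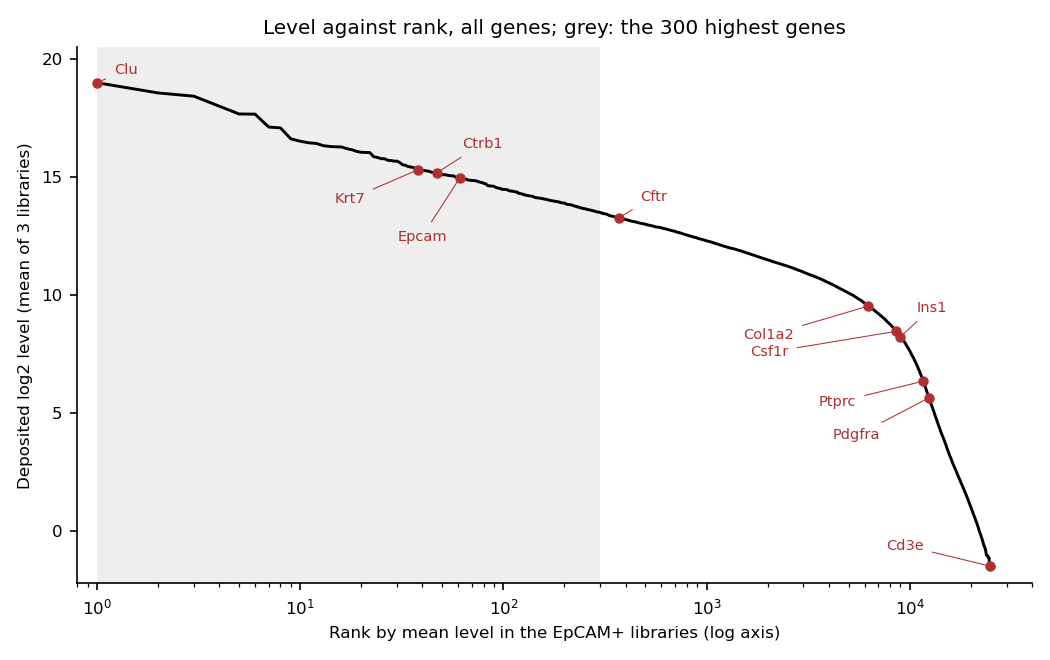
Mean deposited log2 level of every gene over the 3 EpCAM+ libraries (vertical axis) against its rank (horizontal log axis), with the 300 highest genes in grey and named marker genes as red points. Clu opens the curve at 18.99, Epcam and Krt7 lie at ranks 61 and 38, and the islet, fibroblast and leukocyte genes lie on the steep part far to the right, the T cell gene Cd3e at its lower end.

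The mean log2 level fell from 18.99 at rank 1 to 13.50 at rank 300, a factor of 45.0, while the median gene stood at 5.20. The 10 highest genes of each library took 8.81%, 9.14% and 9.67% of its back-transformed total, and the 300 genes took 33.4%, 34.9% and 35.1%. Clu alone took 1.98%, 1.75% and 2.12%. The members just inside the limit were Caprin1, Slc38a2, Alcam, Lpp and Rps14 with means of 13.51, 13.51, 13.51, 13.50 and 13.50, and those just outside were Phlda1, Ubr4, Hspa9, Rhob and Sgms2 with means of 13.49, 13.49, 13.49, 13.48 and 13.48.

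The libraries shared most of these genes. Of the 300 members, 255 were among the 300 highest in each of the 3 libraries, and 349 genes reached that range in at least 1 library. The median SD of the members was 0.132 against 0.122 for the 9449 genes with a mean of at least 8. Ribosomal proteins were the steadiest large class, with a median SD of 0.0454. Eif3a, a subunit of a translation initiation factor, had the smallest SD of all members, with 13.82, 13.82 and 13.83. In 24 members the SD was at least 0.5.

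**Figure D2:**
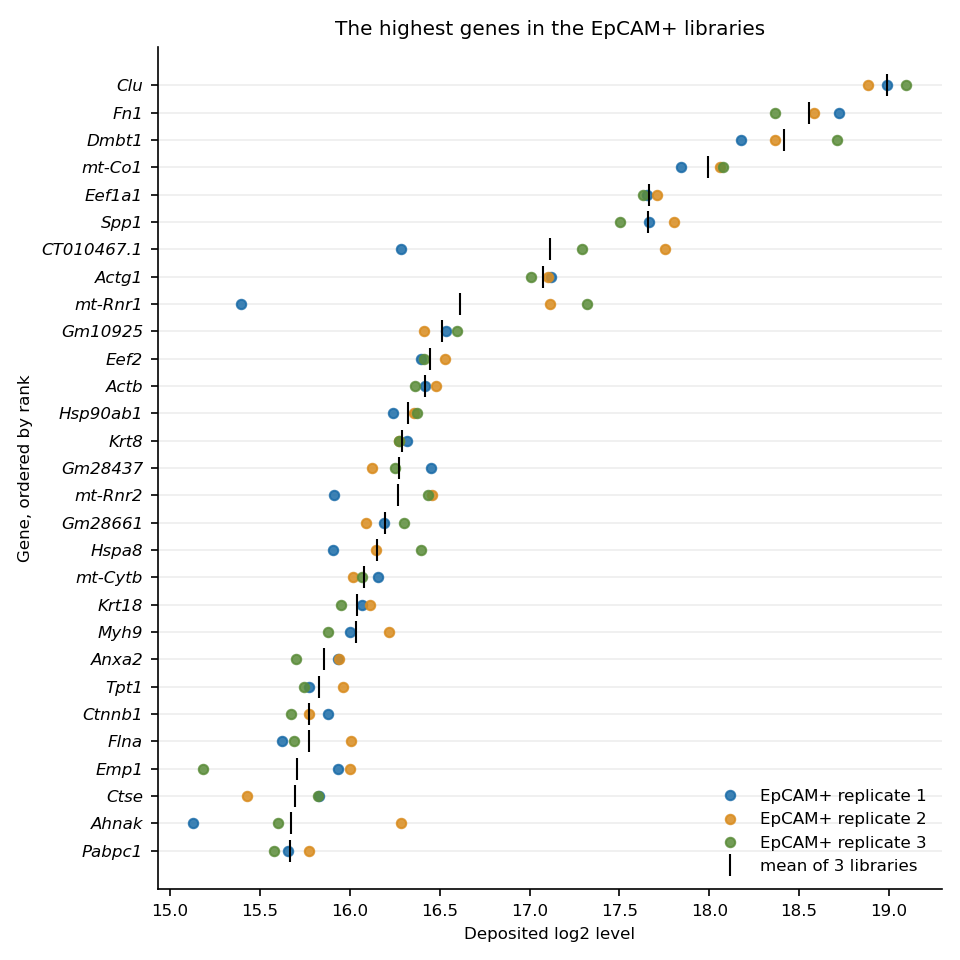
Deposited log2 level of the 30 highest genes, less 1 that is not reported here, in each EpCAM+ library (coloured points, which can cover each other) with the mean of 3 libraries (black bar). Most genes keep the 3 points within 0.5, while mt-Rnr1 and CT010467.1 lie lower in replicate 1, at 15.40 and 16.29, and Ahnak spreads from 15.13 to 16.28.

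The 10 highest genes came from several functions. Fn1, which encodes the matrix protein fibronectin, followed Clu with 18.72, 18.58 and 18.37. Dmbt1, a mucosal scavenger receptor glycoprotein, ranked 3 with 18.18, 18.37 and 18.71. Fn1 was highest in replicate 1 and Dmbt1 in replicate 3, and no library stood far from the others. The cytochrome oxidase subunit mt-Co1 stood at 17.84, 18.06 and 18.08, the elongation factor Eef1a1 at 17.66, 17.71 and 17.63, and Spp1 at 17.67, 17.80 and 17.50. The list went on with the ribosomal RNA gene CT010467.1, the cytoskeletal actin Actg1, the mitochondrial ribosomal RNA mt-Rnr1 and Gm10925, a nuclear copy of a mitochondrial gene. Per kb of exon, the 6 highest were mt-Co1 (17.37), Clu (17.21), Gm10925 (17.07), Spp1 (16.94), Gm28661 (16.75) and mt-Rnr1 (16.68), and Fn1 and Dmbt1, whose joined exons measure 11.7 and 7.06 kb, ranked 21 and 14.

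Of the 300 members, 287 were protein-coding genes. A set of 26 function classes held 237 of them, and the other 63 fell in no class. The table as a whole has 94.3% of its genes in no class, since the classes were built from well-known families.

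**Figure D3:**
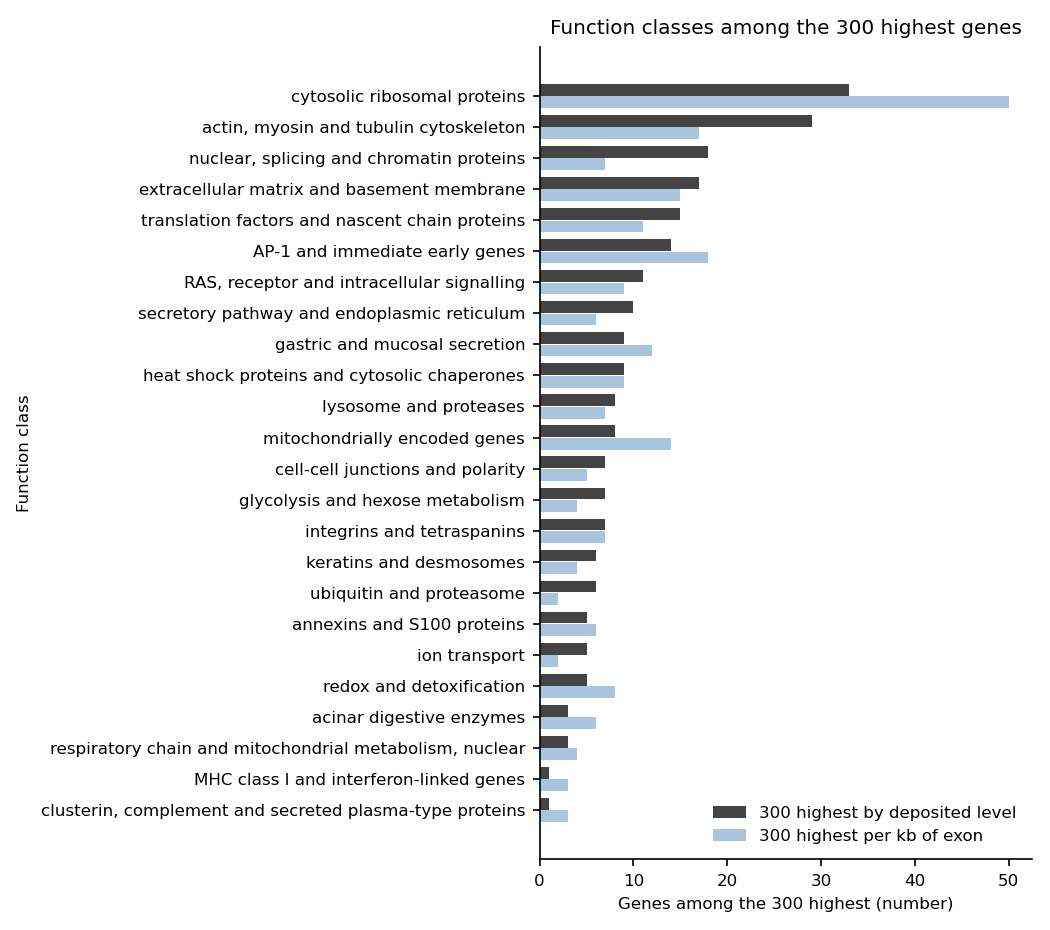
Number of genes of each function class among the 300 highest by deposited level (dark bars) and among the 300 highest per kb of exon (light bars). Ribosomal proteins lead both with 33 and 50 genes, and the cytoskeleton goes from 29 to 17.

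Protein synthesis was the widest theme by count. Ribosomal proteins, the protein part of the ribosome, had 33 of their 91 listed genes among the members, led by Rplp0 (15.16, 15.23 and 15.18), Rpl4, Rps2 and Rpsa, and took 2.28%, 2.27% and 2.37% of the 3 libraries. Translation factors and proteins that bind nascent chains had 15 of 78, led by Eef1a1, the translocase Eef2 (16.39, 16.53 and 16.41), Tpt1 and the poly(A)-binding protein Pabpc1. Per kb of exon the ribosomal proteins numbered 50 and the translation factors 11.

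The cytoskeleton had 29 of its 64 listed genes among the members, or 45.3%, the highest share of any class by deposited level. Per kb of exon it had 17 of 64. Higher shares per kb were those of mitochondrially encoded genes (14 of 25), ribosomal proteins (50 of 91), immediate early genes (18 of 39) and gastric and mucosal genes (12 of 43). The 4 highest cytoskeleton genes by deposited level were Actg1 (17.12, 17.10 and 17.01), Actb, the non-muscle myosin heavy chain Myh9 and the actin crosslinker Flna. Keratins and desmosomes had 6 of 37, of which Krt8 was the highest and nearly the same in all 3 libraries, at 16.32, 16.28 and 16.27. Krt18, its usual partner in the filament, stood at 16.07, 16.11 and 15.95. Jup and Dsp, which anchor keratin at desmosomes, completed the class. Vim, the intermediate filament of mesenchymal cells, was also a member at rank 272, with 13.98, 13.70 and 13.06. It was highest in replicate 1 and lowest in replicate 3.

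Adhesion and matrix genes came next. Junction and polarity genes had 7 of 36, led by Ctnnb1 (beta-catenin, 15.88, 15.78 and 15.67), Cdh1 (15.58, 15.52 and 15.42), Epcam and the tight junction protein Cldn4. Extracellular matrix and basement membrane genes had 17 of 96. Their 4 highest were Fn1, Spp1, Col18a1, the collagen of basement membranes that gives rise to endostatin, and Fbln2. Fbln2, a fibulin, spread from 14.36 in replicate 3 to 15.51 in replicate 2. The laminin chains Lamb3, Lama3 and Lama5 were members. The matrix genes took 3.70%, 3.62% and 3.21% of the 3 libraries. Integrins and tetraspanins had 7 of 39, led by the hyaluronan receptor Cd44, Itgb1, Itga3 and Itga6.

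Gastric and mucosal genes had 9 of their 43 listed genes among the members. Dmbt1, the protease Ctse (15.83, 15.43 and 15.83), the gland mucin Muc6 and the regenerating protein Reg1 were the highest 4. They were followed by Gkn3, Onecut2, Tff2, Muc1 and Reg3b. Onecut2 encodes a transcription factor and not a mucosal product, but is counted here as listed. The class had a median SD of 0.426, above the 0.132 of all members, and took 1.72%, 1.91% and 2.74% of the 3 libraries. Muc6 was the least steady of all 300 genes, with 13.61, 15.97 and 16.68. The trefoil factor Tff2, a partner of gastric mucus, stood at 13.36, 13.47 and 14.78, so that its high library was replicate 3.

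Immediate early genes are transcribed within minutes of a stimulus, and cell dissociation is one known stimulus. They had 14 of 39 listed genes among the members. Fosb (15.37, 15.59 and 15.26), Egr1 (15.12, 15.43 and 15.50) and Fos (15.10, 15.44 and 15.35) took ranks 36, 37 and 39, and Klf6 took rank 43. Jun, Atf3, Zfp36, Junb, Dusp1, Zfp36l1, Nr4a1, Btg1, Btg2 and Jund were the others. A list of 15 genes known for their answer to tissue dissociation had 13 among the members, the others being Ier3 (rank 455) and Ier2 (rank 774), and took 1.086%, 1.342% and 1.502% of the 3 libraries. It includes Hspa1a (0.0378%, 0.0950% and 0.174%) and Hspa1b (0.0578%, 0.132% and 0.242%), which rose toward replicate 3 and have an SD of at least 1. Without these genes 13 are left, of which 8 were highest in replicate 2, 3 in replicate 3 and 2 in replicate 1. All but Ier3 and Ier2 of these are members, and 149 of all 300 members were highest in replicate 2. Among all genes at or above the median gene, 32.7% were highest in replicate 2.

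Among the remaining classes, chaperones had 9 of 95, led by Hsp90ab1 (16.24, 16.36 and 16.37), Hspa8, the endoplasmic reticulum chaperone Hspa5 and Hsp90aa1. Glycolysis had 7 of 27, led by Pkm (15.16, 15.42 and 14.83), Gapdh, Aldoa and Eno1, and replicate 2 was the highest library in all 7 (0.461%, 0.581% and 0.408% of the total). Of all 300 members, 149 were highest in replicate 2. Of the 27 listed glycolysis genes 19 were highest there, 6 in replicate 1 and 2 in replicate 3. Among all genes at or above the median gene, 32.7% were highest in replicate 2. Nuclear and splicing proteins had 18 of 196, with the long non-coding RNA Malat1 and the helicase Ddx5 ahead of the histone H3f3b and Srrm2. Signalling genes had 11 of 57, led by Ptma, the 14-3-3 protein Ywhaz, the EGF family ligand Hbegf and Sfn. The secretory pathway had 10 of 56, led by Pdia3, Calr, Gnas and Rtn4. Genes of lysosomes and proteases had 8 of 50, led by App, Sqstm1, Ctsd and Psap.

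Ubiquitin and proteasome genes had 6 of 55, among them Nedd4, Ubb and Vcp. Annexins and S100 proteins had 5 of 26, with Anxa2, Anxa1, S100a6 and S100a11 the highest. Ion transport had 5 of 28, among them the chloride channel Ano1, Slc12a2 and Atp2a2. Redox genes also had 5, of 92, led by the ferritin chain Ftl1, Prdx1, Fth1 and Akr1a1. The nuclear genes of the respiratory chain had 3 of 111 (Atp5b, Atp5a1 and Slc25a3). MHC class I and interferon-linked genes had 1 of 43 (Ly6e), and clusterin was the 1 gene of 34 of its class. The MHC class II class (5 genes) and the lipid and sterol class (26 genes) had none among the members. This holds for the listed genes only. Scd2, a fatty acid desaturase, was counted in the secretory pathway, and Abhd2 was among the members in no class.

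Of the 63 members in no class, 57 were given a role after their values had been seen. They held 9 surface and adhesion genes, among them Emp1 (rank 27), Prom1 and the mesothelin gene Msln, and 8 transcription regulators, among them the epithelial factor Elf3 and Sox4. A further 5 belonged to growth factor signalling, among them Errfi1, a feedback inhibitor of the EGF receptor, and the ligand Vegfa, and 2 were the cyclins Ccnd1 and Ccnd2. The 6 genes with no role given were Gm43305, 2610507B11Rik, Nisch, Fam107b, Lars2 and Ivns1abp.

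Several members are copies of other genes, and reads of a copy and its source can be assigned to either. Gm10925 (16.53, 16.41 and 16.60) lies on chromosome 1 and equals mt-Atp6, a subunit of the mitochondrial ATP synthase, over all 678 aligned bases. The mitochondrial gene itself stood at 12.35, 11.66 and 11.65, at rank 1457. In the same way Gm28437 (rank 15) equals mt-Co3 over 783 bases, and mt-Co3 itself stood at rank 5488. Gm28661 (rank 17) equals mt-Co2 over 681 bases, and mt-Co2 itself stood at rank 2253. Summed over gene and copy, the ranks were 10 for mt-Atp6, 14 for mt-Co3 and 17 for mt-Co2. Gm15500 (rank 109) matched the ribosomal protein gene Rpl5 at 100% and Gm6472 (rank 265) matched Rps7 at 99.4%. The levels of these genes and of their copies are therefore uncertain singly.

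Mitochondrially encoded genes had 8 of 25 listed genes among the members. The protein-coding ones besides mt-Co1 were mt-Cytb (16.16, 16.02 and 16.07), mt-Nd4, mt-Nd1, mt-Nd5 and mt-Nd2. Together with their nuclear copies, the mitochondrial protein genes took 3.00%, 2.73% and 3.01% of the 3 libraries. The ribosomal RNA genes behaved otherwise. mt-Rnr1 and mt-Rnr2 took 0.399%, 0.839% and 0.956%, and the ribosomal RNA gene CT010467.1 with AY036118, which lies inside it, took 0.343%, 0.897% and 0.703%. All 4 were lowest in replicate 1.

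Length changed the make-up of the list more than the choice of library did. The 300 highest genes by deposited level and the 300 highest per kb of exon shared 179 genes. The median length of joined exons was 4315 bases for the members, 4846 for the 9449 genes with a mean of at least 8, and 1830 for the 300 highest per kb. Per kb, the classes of mitochondrially encoded genes (14), gastric and mucosal genes (12) and acinar enzymes (6) had more genes, and nuclear and splicing proteins had fewer (7). The members that lost most rank were Lpp (rank 299, then 2475), Wnk1 (274, then 2424), Serbp1 (285, then 2198), Neat1 (228, then 1941) and Huwe1 (180, then 1885). Ahnak, a scaffold protein with 19.9 kb of exon, went from rank 29 to 427. The genes that gained most were short. Among them were the miRNA gene Gm26377 with 108 bases (rank 6313, then 158), pseudogenes such as Gm12338 (5372, then 206), and the mitochondrial protein gene mt-Nd3 (3726, then 243).

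Some of the longest members also differed between the libraries. Ahnak stood at 15.13, 16.28 and 15.60, the kinase Wnk1 at 13.02, 14.36 and 13.35, and the ubiquitin ligase Huwe1 at 13.28, 14.42 and 14.19, with replicate 1 lowest and replicate 2 highest in each. Lpp had the same order, at 12.84, 13.96 and 13.69. Other long members did not. Chd9 was highest in replicate 3, at 14.19, 14.64 and 14.89, and Serbp1 was lowest there, at 13.44, 13.75 and 13.42. Over all 239 genes with a mean of at least 8 and more than 16 kb of exon, the median difference of replicate 1 from replicate 2 was -0.31 on the log2 scale and that from replicate 3 was -0.19. Over the 2590 such genes of 2 to 4 kb both medians were 0.06. Neat1, with 20.8 kb, ran the other way at 14.34, 13.52 and 13.39.

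The second group, the 40 genes with an SD of at least 1 and a mean of at least 8, were sorted by the library farthest from the median of the 3. Replicate 1 was that library for 28 of them, replicate 2 for 7 and replicate 3 for 5. In 11 genes that library lay at least 1 from the nearer of the other 2 while these lay within 0.5 of each other. Some of the remaining genes were near ties. H2-Eb1 (9.81, 7.61 and 8.69) was put under replicate 1 as high and H2-Aa (9.95, 7.85 and 8.97) under replicate 2 as low, though their libraries fell in the same order. Of the 40 genes, 37 were protein-coding and 4 were also among the 300 highest (Muc6, Hspa1a, mt-Rnr1 and Hspa1b). The median SD of the 9449 genes was 0.122, and each pair of libraries had a Pearson r of 0.976 to 0.982 across these genes, which are not independent replicates.

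**Figure D4:**
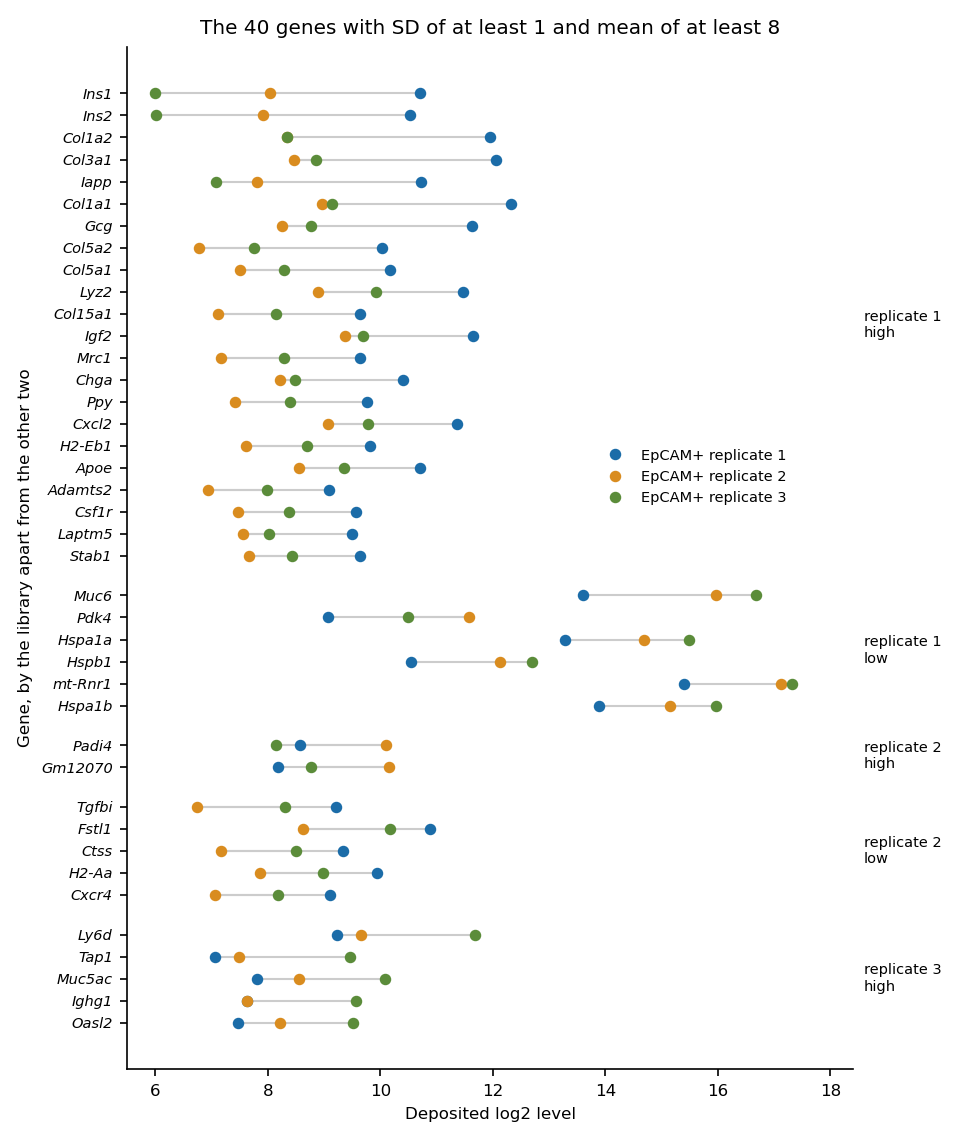
Deposited log2 level of the 40 genes with an SD of at least 1 and a mean of at least 8, in each EpCAM+ library (coloured points), grouped by the library farthest from the other 2 and by its side. Replicate 1 is high in 22 genes, from Ins1 to Stab1, and low in 6, from Muc6 to Hspa1b.

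Replicate 1 was high in 22 genes, and most belonged to 3 families. The islet hormones came first. Ins1 stood at 10.70, 8.03 and 5.99, which spans a factor of 26.1, Ins2 at 10.52, 7.90 and 6.01, Iapp (amylin) at 10.72, 7.80 and 7.08, and Gcg (glucagon) at 11.62, 8.24 and 8.76. The fibrillar collagens followed. Col1a2 stood at 11.95, 8.33 and 8.33, Col3a1 at 12.05, 8.47 and 8.86, Col1a1 at 12.33, 8.96 and 9.14, and Col5a2 at 10.02, 6.78 and 7.75. Replicate 1 was higher than both other libraries in each of these 8 genes, by at least 2 log2 units. The third family was made of macrophage and antigen-presenting cell genes, among them Lyz2 (lysozyme, 11.46, 8.89 and 9.93), the mannose receptor Mrc1 (9.63, 7.17 and 8.28) and the growth factor receptor Csf1r (9.56, 7.47 and 8.38).

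The other genes high in replicate 1 were Col5a1, Col15a1, Igf2, Chga, Ppy, Cxcl2, H2-Eb1, Apoe, Adamts2, Laptm5 and Stab1, with SDs from 1.00 upward. The marker lists hold some of the variable genes, which the SD had selected, so the lists were also counted without them. Of the islet markers above the median gene, 10 of 10 were highest in replicate 1, 6 of them variable genes, and 4 of 4 without those. For macrophage markers the counts were 12 of 12, and 9 of 9 without 3 variable genes. For leukocyte markers they were 4 of 4, and 3 of 3 without Laptm5. For fibroblast markers they were 7 of 10, and 4 of 7 without the 3 collagens that the SD had selected. Among all 12989 genes at or above the median gene, 39.5% were highest in replicate 1. The islet list took 0.0470%, 0.00901% and 0.0114% of the 3 libraries, the fibroblast list 0.0581%, 0.00776% and 0.0105%, the macrophage list 0.0413%, 0.0162% and 0.0214%, and the leukocyte list 0.00743%, 0.00222% and 0.00377%. These shares include the variable genes, so they are not independent of the selection. In replicate 1, Col1a1, Col3a1 and Col1a2 took 0.0196%, 0.0162% and 0.0150%, and Gcg took 0.0120%. Within the macrophage list, Cd14 (rank 1630, SD 0.261) took 0.0161%, 0.0112% and 0.0118% of the 3 libraries. None of these lists had a gene among the 300 members. What part cells of these types had in the spread was not tested.

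The fibroblast markers outside the variable genes were not of 1 pattern. Dcn (decorin) was at 8.15, 5.33 and 5.77 and Pdgfra at 6.82, 4.65 and 5.49, highest in replicate 1. Col14a1 (8.61, 9.14 and 9.57), Pdpn (6.87, 6.37 and 7.26) and Has1 (6.17, 5.78 and 6.43) were highest in replicate 3. The pan-leukocyte gene Ptprc was at 7.63, 5.51 and 5.93. The lists of neutrophils, lymphocytes and erythroid cells had no gene above the median gene, the T cell gene Cd3e standing at -1.40, -1.51 and -1.51. Of 10 endothelial genes only Flt1 passed the median gene (10.84, 11.06 and 10.13), while Pecam1 stood at 4.72, 4.81 and 4.34. Of 9 pericyte and smooth muscle genes 5 passed it, led by Rgs5 at 10.71, 10.75 and 11.66.

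**Figure D5:**
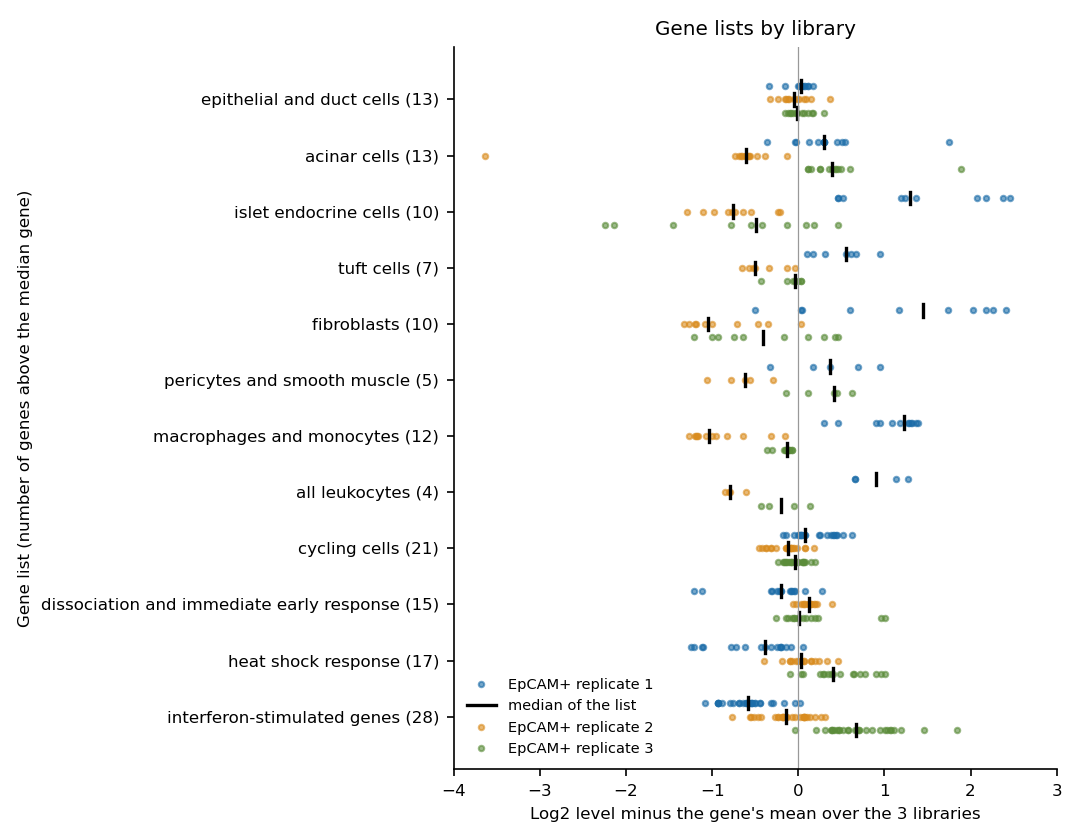
For each gene list, the log2 level of every gene above the median gene minus that gene's mean over the 3 EpCAM+ libraries (points, by library) and the median of the list in each library (black bars). Epithelial and duct genes stay near 0, acinar genes lie lower in replicate 2, islet, fibroblast and macrophage genes lie higher in replicate 1, and heat shock and interferon genes lie higher in replicate 3. The lists include the variable genes, which the SD had selected.

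Acinar enzymes were high and moved between libraries in another pattern. Ctrb1 (chymotrypsinogen) was a member at rank 47 with 15.47, 14.51 and 15.53, as were the lipase-related Pnliprp1 with 14.43, 13.37 and 14.13 and the lipase Cel with 14.37, 13.24 and 13.97. Replicate 2 was lowest in all 3, and in 12 of the 13 acinar markers above the median gene, beside 36.7% of all such genes. The list took 0.488%, 0.234% and 0.461% of the 3 libraries. The amylase Amy2a5 stood at 8.50, 3.10 and 8.63. Of the acinar transcription factors, Rbpjl stood at 9.35, 8.31 and 9.48 (rank 7398), and Ptf1a and Bhlha15 stood nearer the median gene, at ranks 11965 and 12685. The part of acinar cells in these levels was not tested.

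Replicate 1 was low in 6 variable genes, of which 3 encode heat shock proteins. Hspa1a stood at 13.28, 14.68 and 15.49, Hspa1b at 13.89, 15.15 and 15.96, and the small heat shock protein Hspb1 at 10.54, 12.12 and 12.69. In each, replicate 1 was the low library and replicate 3 the high one. Hspa1a and Hspa1b are neighbouring genes whose transcripts match at 99.2% over 2201 bases, so reads can pass between them, and their sum stood at 14.61, 15.94 and 16.75. The others were Muc6, the mitochondrial kinase gene Pdk4, and mt-Rnr1 at 15.40, 17.12 and 17.32. A list of 17 heat shock response genes, chosen after the values were seen, had 15 highest in replicate 3 and 15 lowest in replicate 1. Without the 3 variable genes it had 12 of 14 in both counts, beside 27.8% and 26.7% of all genes at or above the median gene. The list took 0.878%, 1.12% and 1.52% of the 3 libraries, with the variable genes included.

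The promoters of these 3 heat shock genes are shown because the genes vary together among the libraries and hold the letters that the heat shock factor is known to bind. They are the 250 bases before the start of transcription from RefSeq, build GRCm38.p6, printed 5′ to 3′ on the gene's strand, and capitals mark each match to GAANNTTC, a motif that reads the same on both strands. The positions are chr17:34972157-34972406, minus strand for Hspa1a, chr17:34959239-34959488, minus strand for Hspa1b and chr5:135887669-135887918, plus strand for Hspb1.
Hspa1a: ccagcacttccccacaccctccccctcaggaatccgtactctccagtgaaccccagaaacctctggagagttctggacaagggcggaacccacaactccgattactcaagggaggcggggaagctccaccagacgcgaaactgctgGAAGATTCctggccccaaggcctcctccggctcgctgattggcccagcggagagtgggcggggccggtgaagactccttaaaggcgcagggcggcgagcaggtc
Hspa1b: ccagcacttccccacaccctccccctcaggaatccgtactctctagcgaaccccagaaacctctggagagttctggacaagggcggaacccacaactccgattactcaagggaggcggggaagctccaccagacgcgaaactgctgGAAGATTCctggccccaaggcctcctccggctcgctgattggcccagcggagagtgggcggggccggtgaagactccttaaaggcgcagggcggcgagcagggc
Hspb1: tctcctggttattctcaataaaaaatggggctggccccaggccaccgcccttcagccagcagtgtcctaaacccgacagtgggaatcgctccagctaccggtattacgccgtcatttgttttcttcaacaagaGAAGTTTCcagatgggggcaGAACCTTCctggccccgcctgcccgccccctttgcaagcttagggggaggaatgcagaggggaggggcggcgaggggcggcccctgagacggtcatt

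Hspa1a and Hspa1b each held 1 match, which begins 104 bases before the start, and their 250 bases were alike at 247 positions. Hspb1 held 2 matches, which begin 117 and 97 bases before the start. The motif occurred in this window in 6 of the 13 heat shock list genes with a promoter in the RefSeq table, or 46.2%, and in 16 of 222 members of the top 300, or 7.21%. The 6 were the 3 genes shown, with the near copies Hspa1a and Hspa1b counted singly, and Dnaja1, Hspd1 and Hspe1. The 3 genes were shown in part because they hold the motif, so the 46.2% is not independent of that choice. The motif occurred in 7.73% of all 27025 genes with a promoter, and in 9 of the 31 variable genes with a promoter. Besides the 3 heat shock genes these were Muc6, Fstl1, Ctss, H2-Aa, Cxcr4 and Tap1. Fstl1, Ctss, H2-Aa and Cxcr4 were highest in replicate 1 and lowest in replicate 2. On the heat shock list Dnajb1, Hsph1, Bag3 and Dnajb4 were also lowest in replicate 1 and highest in replicate 3, but held no match. A match is a description of the letters and not a measured binding site.

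Replicate 3 was high in 5 variable genes. Ly6d, a surface protein, stood at 9.23, 9.65 and 11.68, the mucin Muc5ac at 7.81, 8.56 and 10.09, and the antibody chain Ighg1 at 7.62, 7.63 and 9.57. Tap1, the peptide transporter of antigen presentation, stood at 7.07, 7.48 and 9.46, and Oasl2, an interferon-induced gene, at 7.47, 8.22 and 9.51. In all 5 genes the other 2 libraries lay below replicate 3. A list of 31 interferon-stimulated genes, also chosen after the values were seen, had 28 above the median gene, of which 27 were highest in replicate 3, beside 27.8% of all such genes, and 24 were lowest in replicate 1. Without Tap1 and Oasl2, 25 of 26 were highest in replicate 3 and 22 lowest in replicate 1. Nlrc5, the regulator of MHC class I genes, stood at 5.21, 5.52 and 8.14. The interferon motif GAAANNGAAA, searched on both strands of the same window, occurred in 11 of the 23 listed genes with a promoter, or 47.8%, and in 3.46% of all genes, and neither Oasl2 nor Tap1 held it there.

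Gastric genes shared this order in part. Of 12 gastric and mucosal gland genes chosen after the values were seen, 11 were highest in replicate 3, and 9 of 10 without the variable genes Muc6 and Muc5ac, beside 27.8% of all genes at or above the median gene. Muc6, Tff2, Gkn3 (13.75, 14.10 and 14.71), Pgc (pepsinogen C, 8.76, 9.19 and 10.52) and Muc5ac had their high value there, while Ctse was level between replicates 1 and 3 at 15.83.

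Replicate 2 was low in Tgfbi (9.21, 6.73 and 8.30), Fstl1, the cathepsin Ctss, the MHC class II chain H2-Aa (9.95, 7.85 and 8.97) and the chemokine receptor Cxcr4. It was high in Padi4 and Gm12070, a pseudogene that matches Gapdh at 99.9%. Of the 12 macrophage markers above the median gene, 12 were lowest in replicate 2, and 9 of 9 without 3 variable genes, beside 36.7% of all such genes. A list of MHC class II and antigen-presenting cell genes, chosen after the values were seen, had 8 genes above the median gene. Of these, 8 of 8 were lowest there, 4 of them variable genes that the SD had selected, and 4 of 4 without those. Just outside the limits lay ENSMUSG00000110451, mt-Co3, Kcnq1ot1 and Fbn1 with SDs of 0.991, 0.982, 0.979 and 0.977, and Zfpm2, Dab2, 2010109I03Rik and C1qa with means of 7.97, 7.90, 7.83 and 7.78. The variable genes nearest to the limit from inside were Stab1, with an SD of 1.00, and Adamts2, with a mean of 8.0002.

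Genes of the cell cycle were present at moderate levels in each library. All 21 markers of cycling cells stood above the median gene and 19 had a mean of at least 8, but none was among the 300 highest. The replication helicase subunit Mcm6 led with 11.71, 11.65 and 11.76 at rank 1679, and Mki67 stood at 11.06, 11.16 and 11.40. The list took 0.0910%, 0.0760% and 0.0834% of the 3 libraries. None of its genes was among the 40 variable genes.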

How the data were processed

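RNA of the sorted cells was extracted with the MagMAX-96 kit, turned into mRNA libraries (KAPA HyperPrep) and read on an Illumina HiSeq, per the labels' protocols. STAR 2.5.2, RSEM, DESeq2 1.24.0 and GRCm38 are named in the submitters' processing notes, without role or order. The authors deposited normalised values on a log2 scale for 25978 genes, between -1.51 and 19.10 in the EpCAM+ libraries. Which transform was used is not given. Genes with a mean under 0 have a median SD of 0.0449 there, so low genes show little spread on this scale. Shares come from values raised back from log2. The deposited table gives no depth.

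Means, SDs (n = 3), ranks and shares were computed with Python 3.11.15 and pandas 2.3.3. Symbols for 25846 genes and lengths came from GENCODE M21, and copies from BLAST+ 2.17.0. RefSeq promoters of GRCm38.p6 matched 222 of the 300 members by symbol.

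Named were the 30 highest genes, the 4 highest of each of 26 classes, up to 8 variable genes of largest SD per library and side, 14 lists of markers, the genes next to each limit and those that changed most in rank per kb. Other genes were named after their values were seen, as were 8 further lists. The members and lists were chosen with earlier results of these data known. Some genes and an allele that these rules cover are not reported here.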

Additional observations from a re-analysis of the deposited data

How the results depend on the processing

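Ranking by the mean of back-transformed values, by the median, after quantile normalisation or upper quartile scaling, or without genes of identical values kept 289 to 300 of the 300 members, and leaving out each library kept 290 to 293. Under all 8 of these rankings together 274 members remained, and none of the 26 class counts moved by over 1.5 times. The share of the back-transformed total, 34.5% as a mean of the 3 libraries, lay between 34.2% and 35.1% without each library. Ranking per kb of exon shared 179 genes and took 30.1%, per kb of longest transcript it shared 189 genes and took 30.7%, and 12 and 9 of the class counts moved by over 1.5 times. Without genes that are not protein-coding, an alternative added after seeing the data, the share was 32.2%. The 300 genes per kb kept 273 to 300 members under the other choices, and 290 to 295 without each library.

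The 40 variable genes became 87 at an SD of at least 0.8, 9 at 1.5, 62 at a mean of at least 7 and 18 at 9. Scaling and the range rule gave 34 to 40. Without each library there were 36 to 65. Without replicate 1 there were 36, of which 6 were among the 40, without replicate 2 there were 55 with 26 of the 40, and without replicate 3 there were 65 with 32 of the 40. Without the islet, fibroblast, macrophage, leukocyte and lymphocyte markers, also added after seeing the data, 27 were left. Per kb of exon the mean levels were 13.82 for Epcam, 12.49 for Krt7 and 17.21 for Clu, with Krt7 at rank 182 and Clu at rank 2. Without each library the levels ranged from 14.90 to 14.98 for Epcam, 15.26 to 15.36 for Krt7 and 18.94 to 19.04 for Clu, and the ranks from 58 to 67 for Epcam and 35 to 43 for Krt7, with Clu at 1. No paired analysis was possible because the results come from no test. With 3 libraries and no counts, the spread between libraries is the only error known here.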

Other observations

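Tuft cells, a rare chemosensory cell of the duct lining in early lesions, had 7 of their 10 listed markers above the median gene, and 7 of 7 were highest in replicate 1, beside 39.5% of all genes at or above the median gene. Dclk1, a kinase used to mark them, stood at 11.79, 11.57 and 11.72 and the actin-binding Avil at 11.17, 10.53 and 10.89, while their regulator Pou2f3 stood at 5.81, 4.39 and 5.14, near the median gene at 5.20. The list took 0.0289%, 0.0205% and 0.0247% of the 3 libraries.

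Markers used to tell tumour types apart, a list of 8 genes chosen after the values were seen, gave a mixed picture. Sprr1a, a protein of the cornified envelope, ranked 410 with 13.20, 13.47 and 12.87, and the keratin Krt17 stood at 10.38, 9.95 and 9.75. The basal genes Krt5 (0.94, 0.72 and 1.14) and Trp63 (0.50, 0.52 and 0.51) were far below the median gene. The 2 variable genes of the list, Ly6d and Muc5ac, were both highest in replicate 3. Of the 13 mitochondrially encoded proteins, a list also chosen after the values were seen, 10 were highest in replicate 1. With their nuclear copies, to which reads can be assigned, they took 3.00%, 2.73% and 3.01% of the 3 libraries. Among all genes at or above the median gene, 39.5% were highest in replicate 1 and 36.7% lowest in replicate 2. Of the 14 fibroblast matrix genes on a list also chosen after the values were seen, 14 were highest in replicate 1 and 13 lowest in replicate 2. The SD had selected 9 of the 14, so these counts are not independent of that choice. Without them, 5 of 5 were highest in replicate 1 and lowest in replicate 2. With them included, the list took 0.116%, 0.0250% and 0.0407% of the 3 libraries.

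Antibody genes, a list of 9 chosen after the values were seen, had 5 above the median gene, of which 4 were highest in replicate 3, among them Ighg1, which the SD had selected, beside 27.8% of all genes at or above the median gene. Igkc stood at 8.27, 7.97 and 9.78 and Igha at 7.79, 8.02 and 9.09, while the B cell gene Cd79a (4.04, 3.52 and 3.81) was below the median gene. The part of antibody-producing cells in these levels was not tested.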
